A study of Rattus norvegicus with 35 samples.

Results

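The 8 genes examined encode the transcription factor Nrf2, its relative Nrf1, and proteins that control Nrf2 or pair with it. These genes were Nfe2l2 (which encodes Nrf2), Nfe2l1 (Nrf1), Keap1, the small Maf genes Maff, Mafg and Mafk, Bach1 and Sqstm1 (p62). The choice was by symbol, and it was made with earlier results of these data known. Counts of these genes beside those of all probe sets are therefore a description. A gene was represented by the probe sets whose array annotation names it alone, a probe set being a group of short probes that reads 1 transcript, and the brightest of these on average over all arrays was its main probe set. This gave 8 of 14217 annotated genes and 15 of 31042 probe sets. RNA came from neonatal rat ventricular myocytes (NRVMs), a primary culture from Sprague-Dawley rats aged 2 to 4 days, enriched for myocytes by pre-plating and kept in serum-free medium on flexible collagen-coated plates. Myocytes were left unstretched or were subjected to cyclic mechanical stretch by vacuum under the plates. The experiment had 2 sets with a control group each: set I with 1, 4 and 12 h of stretch, and set II with 24 and 48 h. There were 5 arrays in each of the 7 groups, which the methods call biological replicates, and within a culture all groups were harvested together. By the labels, no other treatment, genotype or strain differed between the groups.

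Nrf2 is a cap'n'collar (CNC) transcription factor that switches on genes for glutathione and thioredoxin metabolism, NADPH supply and haem breakdown. Keap1 binds Nrf2 in the cytoplasm and hands it to a cullin ubiquitin ligase, so that Nrf2 protein is destroyed until oxidants or electrophiles modify Keap1. On DNA, Nrf2 and Nrf1 pair with a small Maf protein (MafF, MafG or MafK) at the antioxidant response element. Small Maf proteins bind DNA but have no activation domain, and pairs made only of small Mafs or of a small Maf with Bach1 repress the same elements. The autophagy adaptor p62 binds Keap1 and carries it to autophagosomes, and Sqstm1 is itself a known Nrf2 target gene. Much of this control acts on proteins, which expression arrays do not measure.

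In RefSeq annotation of build GRCr8, Nfe2l2 lies at chr3:81001529-81031165, Nfe2l1 at chr10:82296824-82309472 and Keap1 at chr8:28044555-28054042. Maff was found at chr7:112792787-112804139, Mafg at chr10:106401633-106410159 and Mafk at chr12:19948473-19970351. Bach1 occupies chr11:40425721-40461118 and Sqstm1 chr10:35026598-35037750. The 100 bases upstream of a RefSeq transcript start are shown for the 3 small Maf genes, which rose at every time of stretch, at chr7:112792687-112792786 (plus strand), chr10:106410133-106410232 (minus strand) and chr12:19959193-19959292 (minus strand). The Mafg and Mafk starts used by the promoter table lie inside the annotated genes, so that part of the Mafg stretch and all of the Mafk stretch are within them. Capitals mark motif matches.
Maff: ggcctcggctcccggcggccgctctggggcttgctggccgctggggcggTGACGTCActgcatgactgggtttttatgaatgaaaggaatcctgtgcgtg
Mafg: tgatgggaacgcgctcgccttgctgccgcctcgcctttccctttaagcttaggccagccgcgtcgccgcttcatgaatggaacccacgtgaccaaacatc
Mafk: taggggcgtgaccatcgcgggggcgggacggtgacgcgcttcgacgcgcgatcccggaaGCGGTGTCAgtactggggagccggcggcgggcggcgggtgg

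Motifs were searched on both strands from 250 bases before to 50 bases after each start. TGACGTCA, the cAMP response element, begins 51 bases before the Maff start, and 1.83% of 33469 rat promoters of this length held it. The antioxidant response element core TGACNNNGC was present in 12.1% of promoters, among them that of Mafk, where it lies on the opposite strand and begins 41 bases before the start. Nfe2l2 held a match to this core as well, in the bases after its start, and Bach1 a match there to TGACTCA, the AP-1 site, which 4.63% of promoters held. No match to these motifs or to the CArG box of serum response factor (1.64% of promoters) was found in the windows of Mafg, Keap1, Sqstm1 or Nfe2l1. The antioxidant core can overlap TGACTCA, which did not happen in these 8 genes. A match is a description of the letters only.

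After 1 h of stretch, 4 of the 8 genes were higher than in unstretched control cells at a false discovery rate (FDR) under 0.05, which is the Benjamini-Hochberg adjusted p from limma over all probe sets, namely Nfe2l2, Maff, Mafg and Mafk. Of all probe sets 13.8% were called at this time in either direction and 6.32% as higher. At 4 h the same test called 6 genes, all higher, against 29.4% of all probe sets in either direction and 14.2% as higher, and at 12 h it called 6 against 33.2% and 16.3%. These 6 were Nfe2l1, Keap1, Maff, Mafg, Mafk and Sqstm1 at both times. At 24 h and at 48 h the 4 genes Maff, Mafg, Mafk and Sqstm1 were called, all higher, where 18.3% and 32.9% of all probe sets were called in either direction and 9.14% and 16.9% as higher. With a change of at least 1.5-fold required, Maff and Mafk passed at 1, 4, 24 and 48 h, and Maff and Sqstm1 at 12 h, so that the count was 2 at each time. The background for that rule was 1.31%, 3.07%, 4.23%, 2.91% and 7.46% of probe sets in the order of the times. Median log2 changes of the 8 genes were 0.13, 0.26, 0.41, 0.26 and 0.18, whereas the medians over all genes lay between -0.004 and 0.044. No member was called lower at any time of stretch. Arrays of a whole culture cannot tell fewer cells of a type from less RNA per cell, which holds for every level below.

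**Figure D1:**
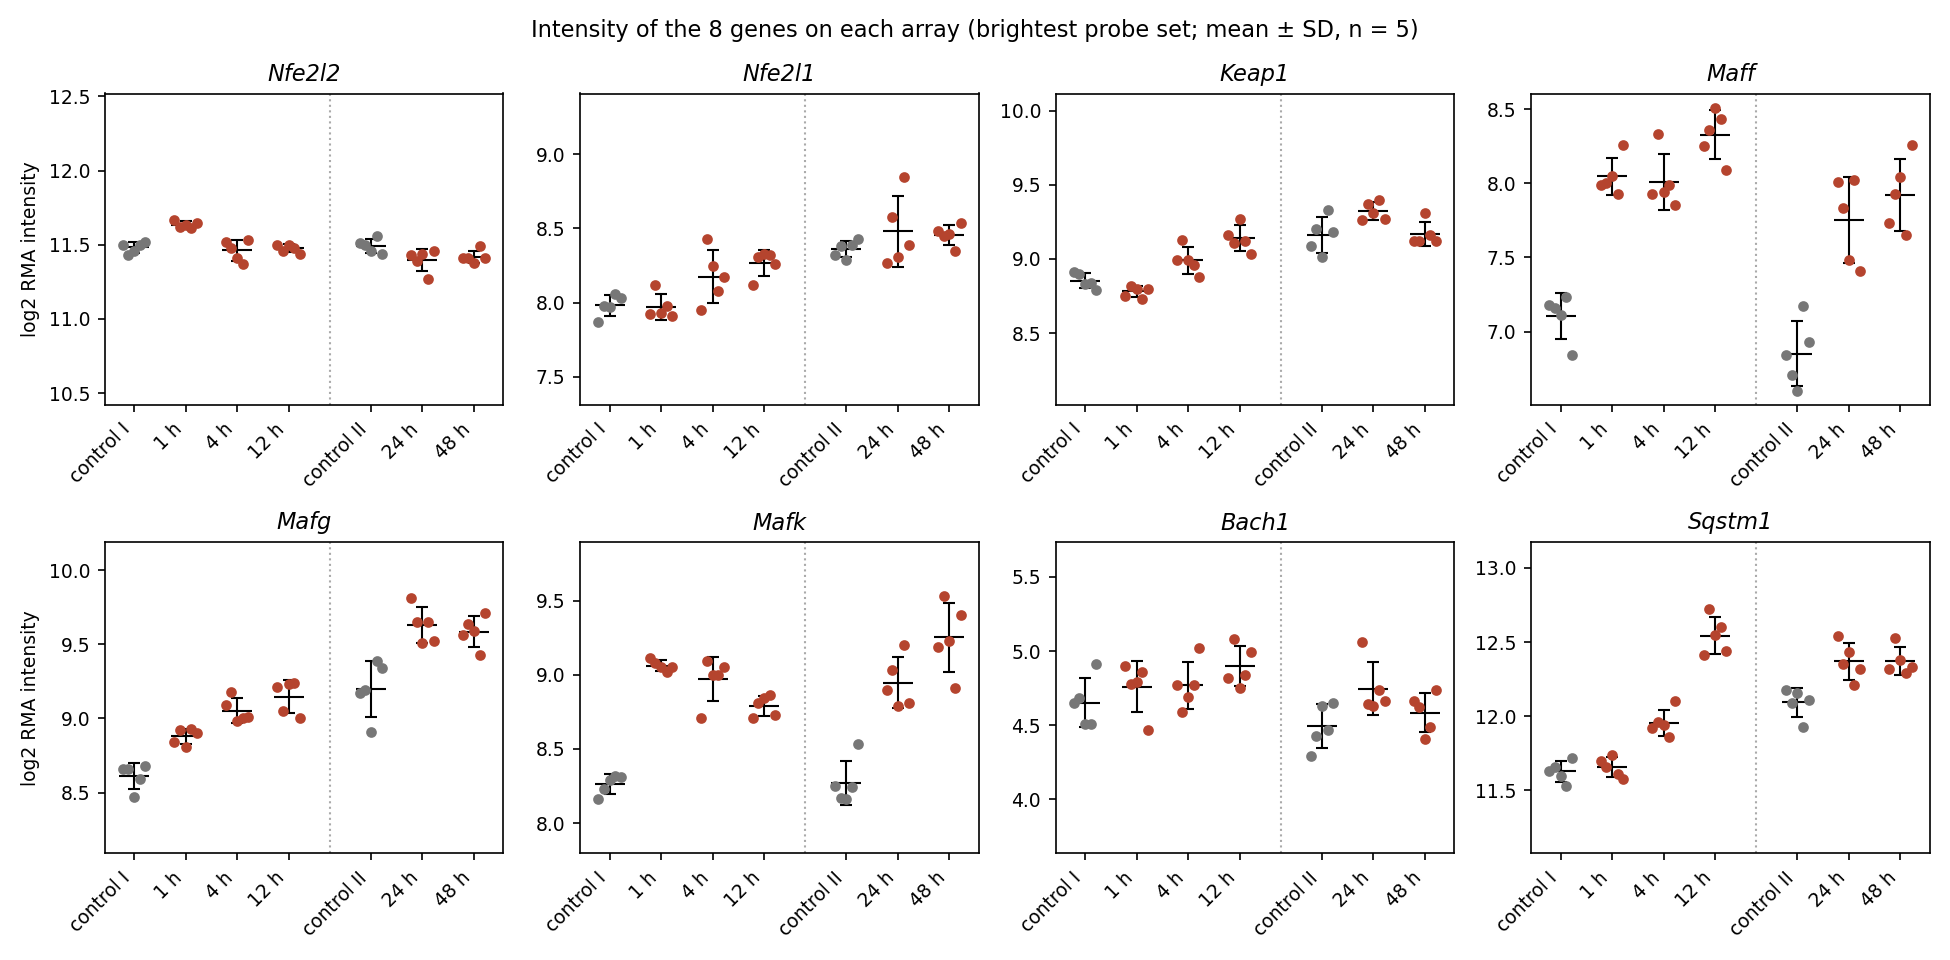
Log2 RMA intensity of the main probe set of each gene on every array, with grey points for unstretched control cells, red points for stretched myocytes, and a bar with whiskers for the mean ± SD of 5 arrays. The dotted line separates set I from set II, which are not compared, and the vertical axes have the same span in all panels. Stretched arrays lie above all control arrays at every time for Maff, Mafg and Mafk, while Nfe2l2 stays between 11.27 and 11.67.

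Maff encodes the small Maf protein MafF, whose gene is known to respond to stress and inflammatory signals. Its log2 intensities (probe set 1380229_at) were 7.18, 7.16, 7.11, 7.23 and 6.84 in unstretched cells, 7.99, 8.0, 8.05, 7.93 and 8.26 after 1 h, 7.93, 8.33, 7.94, 7.99 and 7.85 after 4 h, and 8.25, 8.36, 8.51, 8.43 and 8.09 after 12 h. In set II they were 6.84, 6.71, 6.6, 7.17 and 6.93 in unstretched cells, 8.01, 7.83, 7.48, 8.02 and 7.41 after 24 h, and 7.73, 7.93, 8.04, 7.65 and 8.26 after 48 h. All stretched arrays of a set were above all of its controls. The rise was 1.92-fold at 1 h (log2 change 0.94, standard error 0.094, FDR = 4.15e-07) and 1.87-fold at 4 h (FDR = 2.92e-07). Within set I it was largest at 12 h at 2.34-fold (FDR = 3.83e-09). In set II the rise was 1.86-fold at 24 h (log2 change 0.9, standard error 0.14, FDR = 0.000364) and 2.1-fold at 48 h (FDR = 2.01e-05). Changes of set I and set II were not tested against each other. Between 1 and 4 h the log2 level differed by -0.04 (FDR = 0.87), and 12 h arrays were higher than 4 h arrays by 0.32 and than 1 h arrays by 0.28 (FDR = 0.036 for each). Both of these differences fell short of the threshold without any of 7 arrays, at 0.27 to 0.32 and 0.24 to 0.28.

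Mafk, whose protein was first known as the small subunit of the factor NF-E2, had its highest mean level of set I at 1 h. In unstretched cells of set I its log2 intensities (1372211_at) were 8.16, 8.23, 8.29, 8.32 and 8.31, after 1 h 9.11, 9.08, 9.05, 9.02 and 9.05, after 4 h 8.71, 9.09, 9.0, 9.0 and 9.05, and after 12 h 8.71, 8.81, 8.84, 8.86 and 8.73. Controls of set II read 8.25, 8.17, 8.16, 8.24 and 8.53, 24 h arrays 8.90, 9.03, 8.79, 9.20 and 8.81, and 48 h arrays 9.19, 9.53, 9.23, 8.91 and 9.40. Stretched and control arrays did not overlap at any time, and 12 h arrays were all below 1 h arrays. Mafk rose 1.74-fold at 1 h (log2 change 0.8, standard error 0.058, FDR = 3.2e-09), 1.63-fold at 4 h (FDR = 1.35e-08) and 1.44-fold at 12 h (FDR = 5.23e-07). The level at 12 h was lower than at 1 h by a log2 difference of -0.27 (FDR = 0.00191). In set II the rise was 1.6-fold at 24 h (FDR = 0.000427) and 1.97-fold at 48 h (FDR = 3.35e-06), and these levels differed by 0.31 on the log2 scale with an FDR of 0.122. Replicate 4 at 48 h was the lowest array of its group, and without it the difference was 0.39 (FDR = 0.027).

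Mafg encodes MafG, the small Maf most often named as the partner of Nrf2. Its main probe set (1372024_at) read 8.66, 8.66, 8.47, 8.59 and 8.68 in unstretched cells, 8.84, 8.92, 8.81, 8.93 and 8.90 after 1 h, 9.09, 9.18, 8.98, 9.0 and 9.01 after 4 h, and 9.21, 9.05, 9.23, 9.24 and 9.0 after 12 h. For set II the values were 9.17, 9.19, 8.91, 9.39 and 9.34 in unstretched cells, 9.81, 9.65, 9.51, 9.65 and 9.52 after 24 h, and 9.56, 9.64, 9.59, 9.43 and 9.71 after 48 h. Every stretched array was above every control array of its set, by little in set II, where the highest control read 9.39 and the lowest 48 h array 9.43. Mafg rose 1.21-fold at 1 h (log2 change 0.27, standard error 0.056, FDR = 0.00205), 1.35-fold at 4 h (FDR = 4.28e-06) and 1.45-fold at 12 h (FDR = 2.61e-07). At 24 and 48 h it was 1.35-fold and 1.31-fold higher (FDR = 0.0023 and 0.00227). The 12 h level exceeded the 1 h level by 0.26 on the log2 scale (FDR = 0.00171). The second Mafg probe set, 1368874_a_at, was dimmer and gave 1.5-fold at 4 h and 1.73-fold at 12 h (FDR = 7.92e-06 and 1.38e-07), but it missed the threshold at 1, 24 and 48 h with log2 changes of 0.21, 0.26 and 0.22 (FDR = 0.0878, 0.314 and 0.324).

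The responses of the small Maf genes were compared with each other through the difference of their log2 intensities on each array, tested between stretched and control arrays with a two-sided exact permutation test over the 252 splits of 5 against 5 arrays. For 5 arrays against 5 the smallest p this test can give is 0.00794, and for these tests the FDR is the p adjusted over 25 tests, which cover 5 pairs of genes at 5 times. Maff rose more than Mafg at all 5 times, by 0.67, 0.47, 0.69, 0.47 and 0.69 on the log2 scale at 1, 4, 12, 24 and 48 h (FDR = 0.018 at each, exact permutation). Mafg rose less than Mafk at 1 h by a log2 difference of -0.53 (standard error 0.066) and at 48 h by -0.6 (0.098, FDR = 0.018 for both, exact permutation). At 4 h and at 24 h the differences of -0.27 and -0.25 had an FDR of 0.0709 each in the exact test. On the main probe sets, the 12 h changes of Mafg and Mafk differed by 0.01 with a standard error of 0.073. With all probe sets of Mafg averaged, that difference was 0.13 (FDR = 0.0611, exact permutation). With the same averaging, Maff rose more than Mafg by 0.7, 0.39, 0.56, 0.55 and 0.77 in the order of the times. The FDR was 0.0496 at 24 h and 0.0198 at the other times (exact permutation). Probe sets of a single gene can also differ in size of change, as the main and second Mafg probe sets did at 12 h (0.53 and 0.79). The values of this paragraph otherwise compare main probe sets only. Maff and Mafk differed at 12 h, where Maff rose more by 0.7 (standard error 0.097, FDR = 0.018, exact permutation). Their differences of 0.14, 0.2, 0.22 and 0.09 at the other times had standard errors of 0.1 to 0.13 and overlapped between stretched and control arrays.

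**Figure D2:**
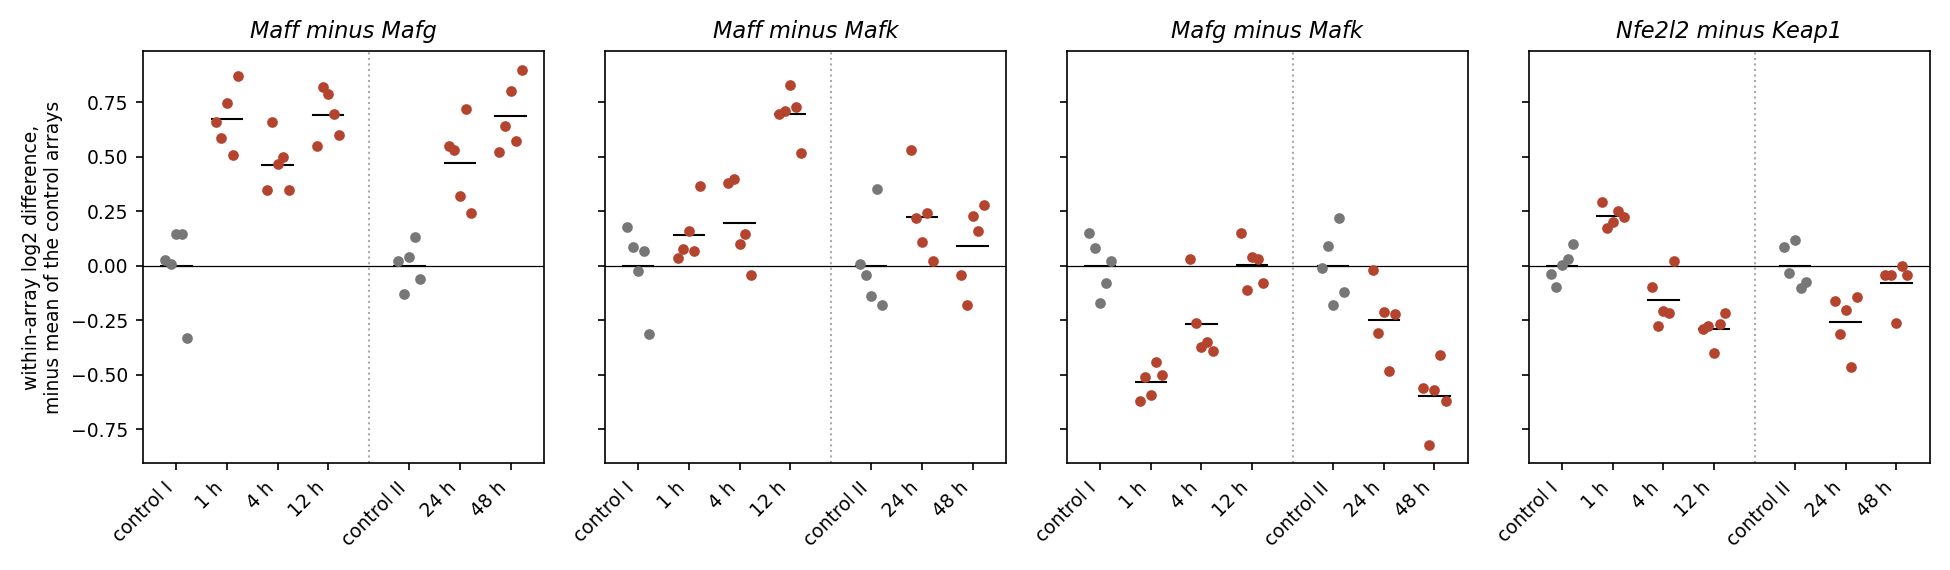
Difference between the log2 intensities of 2 genes on each array, minus the mean of that difference in the controls of the same set, with grey points for control arrays, red points for stretched arrays and a bar for the group mean. A point at 0 means that both genes changed alike. Maff minus Mafg lies above all controls at every time, and Nfe2l2 minus Keap1 lies above them at 1 h and below them at 12 and 24 h.

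Nfe2l2, the gene of Nrf2 itself, passed the test only at 1 h and by a small change. Its main and only probe set (1367826_at) gave log2 intensities of 11.50, 11.43, 11.46, 11.50 and 11.52 in unstretched cells of set I and 11.67, 11.62, 11.63, 11.61 and 11.65 after 1 h. At 4 h the arrays read 11.52, 11.48, 11.41, 11.37 and 11.53, and at 12 h 11.50, 11.46, 11.50, 11.48 and 11.44. The 1 h arrays lay above all others of the set, and the 4 and 12 h arrays overlapped the controls. The increase at 1 h was 1.11-fold (log2 change 0.15, standard error 0.038, FDR = 0.00759). The 4 and 12 h levels were below the 1 h level by log2 differences of -0.17 and -0.16 (FDR = 0.00408 and 0.00416). Against the controls, the 95% interval of the log2 change reached from -0.1 to 0.06 at 4 h and from -0.08 to 0.07 at 12 h. In set II, control arrays read 11.51, 11.50, 11.46, 11.56 and 11.44, 24 h arrays 11.43, 11.39, 11.44, 11.27 and 11.46, and 48 h arrays 11.41, 11.41, 11.38, 11.49 and 11.41. Stretched arrays overlapped the lower controls, and the log2 changes of -0.1 at 24 h and -0.07 at 48 h had FDR values of 0.185 and 0.252.

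Nfe2l1 encodes Nrf1, a CNC factor made at the endoplasmic reticulum that drives genes of the proteasome. On its main probe set (1373278_at) the log2 intensities were 7.87, 7.98, 7.97, 8.06 and 8.03 in unstretched cells, 7.92, 8.12, 7.93, 7.98 and 7.91 after 1 h, 7.95, 8.43, 8.25, 8.08 and 8.17 after 4 h, and 8.12, 8.31, 8.33, 8.32 and 8.26 after 12 h. Only the 12 h arrays were all above the controls. Nfe2l1 was 1.15-fold higher at 4 h (log2 change 0.2, standard error 0.071, FDR = 0.0421) and 1.22-fold higher at 12 h (FDR = 0.0034), and 12 h exceeded 1 h by 0.29 on the log2 scale (FDR = 0.00479). The 4 h call was lost without control replicate 1, 2 or 3 or without 4 h replicate 2, 3 or 5, with log2 changes of 0.13 to 0.2 and FDR values of 0.0577 to 0.134, the lowest value being that without 4 h replicate 2, the brightest array. In set II the controls ranged from 8.29 to 8.43, the 24 h arrays from 8.27 to 8.85 and the 48 h arrays from 8.35 to 8.54, and log2 changes of 0.12 and 0.1 did not pass the test (FDR = 0.407 and 0.44). Its other probe sets did not follow 1 course: 1375253_at gave 1.22-fold at 4 h and 1.29-fold at 12 h (FDR = 0.0254 and 0.0052), whereas 1390068_at gave log2 changes of 0.03 and 0.08 at these times (FDR = 0.723 and 0.204) and was higher at 24 h and 48 h, by 1.14-fold and 1.21-fold (FDR = 0.0335 and 0.00202).

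Keap1, the adaptor that hands Nrf2 to its ubiquitin ligase, was higher in the later part of set I. Its main probe set (1370066_at) read 8.91, 8.90, 8.83, 8.84 and 8.79 in unstretched cells, 8.75, 8.82, 8.80, 8.73 and 8.80 after 1 h, 8.99, 9.13, 8.99, 8.96 and 8.88 after 4 h, and 9.16, 9.11, 9.27, 9.12 and 9.03 after 12 h. The 12 h arrays lay above all controls and above all 1 h arrays, and at 4 h the dimmest array fell within the controls. Keap1 was 1.22-fold higher at 12 h (log2 change 0.28, FDR = 0.000122) and 1.1-fold higher at 4 h (0.14, standard error 0.049, FDR = 0.0435), and its log2 change of -0.08 at 1 h had an FDR of 0.381. From 1 h, its level was higher by 0.21 at 4 h and by 0.36 at 12 h on the log2 scale (FDR = 0.00615 and 1.88e-05). The 4 h call was lost when any of 12 arrays was left out (control replicates 3, 4 and 5, 1 h replicates 1, 2 and 3, 4 h replicates 1 to 4, and 12 h replicates 2 and 4), with log2 changes of 0.1 to 0.14 and FDR values of 0.0501 to 0.13. In set II, control arrays ranged from 9.01 to 9.33, 24 h arrays from 9.26 to 9.40 and 48 h arrays from 9.12 to 9.31. The log2 changes there were 0.16 and 0.01 (FDR = 0.0801 and 0.952), and without control replicate 4, the brightest control, the 24 h change was 0.2 (FDR = 0.0245). A dimmer probe set, 1387810_at, was 1.34-fold higher at 12 h (FDR = 0.0136) and gave log2 changes of 0.29 at 4 h, 0.06 at 24 h and -0.21 at 48 h (FDR = 0.103, 0.924 and 0.643).

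The difference between Nfe2l2 and the gene of its inhibitor, Keap1, went in opposite directions early and late in set I. Nfe2l2 rose more than Keap1 at 1 h by 0.23 on the log2 scale (standard error 0.038), and at 12 h it was lower relative to Keap1 by -0.29 (0.043, FDR = 0.018 for both, exact permutation). In both cases the stretched arrays lay outside the range of the controls. The log2 changes of Nfe2l2 and Keap1 themselves were 0.15 and -0.08 at 1 h, and -0.0045 and 0.28 at 12 h. The difference was -0.15 at 4 h (FDR = 0.0868), -0.26 at 24 h (FDR = 0.018) and -0.08 at 48 h (FDR = 0.298) in the same exact test. With all probe sets of Keap1 averaged, the 24 h call was lost at -0.21 (FDR = 0.265, exact permutation) and the 4 h difference passed at -0.23 (FDR = 0.0198, exact permutation).

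Bach1 encodes the CNC repressor that competes with Nrf2 for small Maf partners. Its only probe set, 1377699_at, was dim, with a mean log2 intensity of 4.7 that lies below 4.75, the lower quartile of all probe sets. Controls of set I read 4.65, 4.68, 4.51, 4.51 and 4.91, and the arrays at 1, 4 and 12 h ranged from 4.47 to 4.90, from 4.59 to 5.02 and from 4.75 to 5.08. In set II the ranges were 4.29 to 4.65 in the controls, 4.63 to 5.06 at 24 h and 4.41 to 4.74 at 48 h. Stretched and control arrays overlapped at all times. Log2 changes of 0.1, 0.12, 0.24, 0.25 and 0.09 did not pass the test (FDR = 0.564, 0.414, 0.0517, 0.0667 and 0.473), with 95% intervals of 0.05 to 0.44 at 12 h and 0.06 to 0.45 at 24 h. Both of these lay near the threshold: the 12 h change passed in 7 alternative settings, with FDR values of 0.00634 to 0.0414, and the 24 h change in 4, with 0.038 to 0.0473. Nfe2l2 minus Bach1 differed from the controls at 24 h by -0.35 (standard error 0.12, FDR = 0.0496, exact permutation), and this call was lost without any of 9 of the 10 arrays, all but control replicate 5, at -0.39 to -0.28 (FDR = 0.0661 to 0.0916, exact permutation).

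Sqstm1 encodes p62, which binds Keap1 and ubiquitinated cargo for autophagy, and rose in steps from 4 to 12 h. Log2 intensities of its main probe set (1371353_at) were 11.63, 11.66, 11.60, 11.53 and 11.72 in unstretched cells, 11.70, 11.66, 11.74, 11.61 and 11.58 after 1 h, 11.92, 11.96, 11.94, 11.86 and 12.10 after 4 h, and 12.41, 12.72, 12.55, 12.60 and 12.44 after 12 h. The 1 h arrays overlapped the controls, the 4 h arrays lay above both groups, and the 12 h arrays lay above all others. Sqstm1 was 1.02-fold of the control at 1 h (FDR = 0.845), rose 1.25-fold at 4 h (log2 change 0.32, standard error 0.059, FDR = 0.000215) and rose 1.88-fold at 12 h (log2 change 0.91, FDR = 3.09e-10). The level at 12 h was above that at 4 h by 0.59 on the log2 scale (FDR = 9.38e-07). In set II the controls read 12.18, 12.09, 12.16, 11.93 and 12.11, the 24 h arrays 12.54, 12.35, 12.43, 12.21 and 12.32, and the 48 h arrays 12.32, 12.53, 12.38, 12.29 and 12.33. Stretched arrays were above all controls, closely so at 24 h, and Sqstm1 was 1.21-fold higher at both times (FDR = 0.00985 and 0.00537). The smaller change at 24 and 48 h was not tested against that at 12 h, which belongs to the other set.

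The 4 probe sets of Sqstm1 disagreed in size. Probe set 1389381_at rose 1.28-fold at 4 h and 2.13-fold at 12 h (FDR = 0.00282 and 4.4e-09), and its log2 changes of 0.53 at 24 h and 0.58 at 48 h, with a standard error of 0.23 each, did not pass the test (FDR = 0.132 and 0.0639). In set II its arrays were spread widely, with controls of 10.39, 10.06, 10.56, 9.33 and 10.28 and 24 h arrays of 11.06, 10.50, 11.02, 9.89 and 10.79, replicate 4 being the lowest in each group. Each 24 h array was above the control array of the same number. The fit did not pair arrays, so any spread shared by same-numbered arrays is part of this standard error. A paired test of this probe set was not run. The dim probe sets 1371221_at and 1371220_at (mean log2 5.7 and 4.26) gave log2 changes of 0.21 and -0.05 at 12 h (FDR = 0.105 and 0.716) and passed at no time. Averaged over all 4 probe sets, Sqstm1 changed by 0.19 at 4 h and 0.54 at 12 h on the log2 scale (FDR = 0.0153 and 3.03e-07), and the 24 h change of 0.2 no longer passed (FDR = 0.0814).

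**Figure D3:**
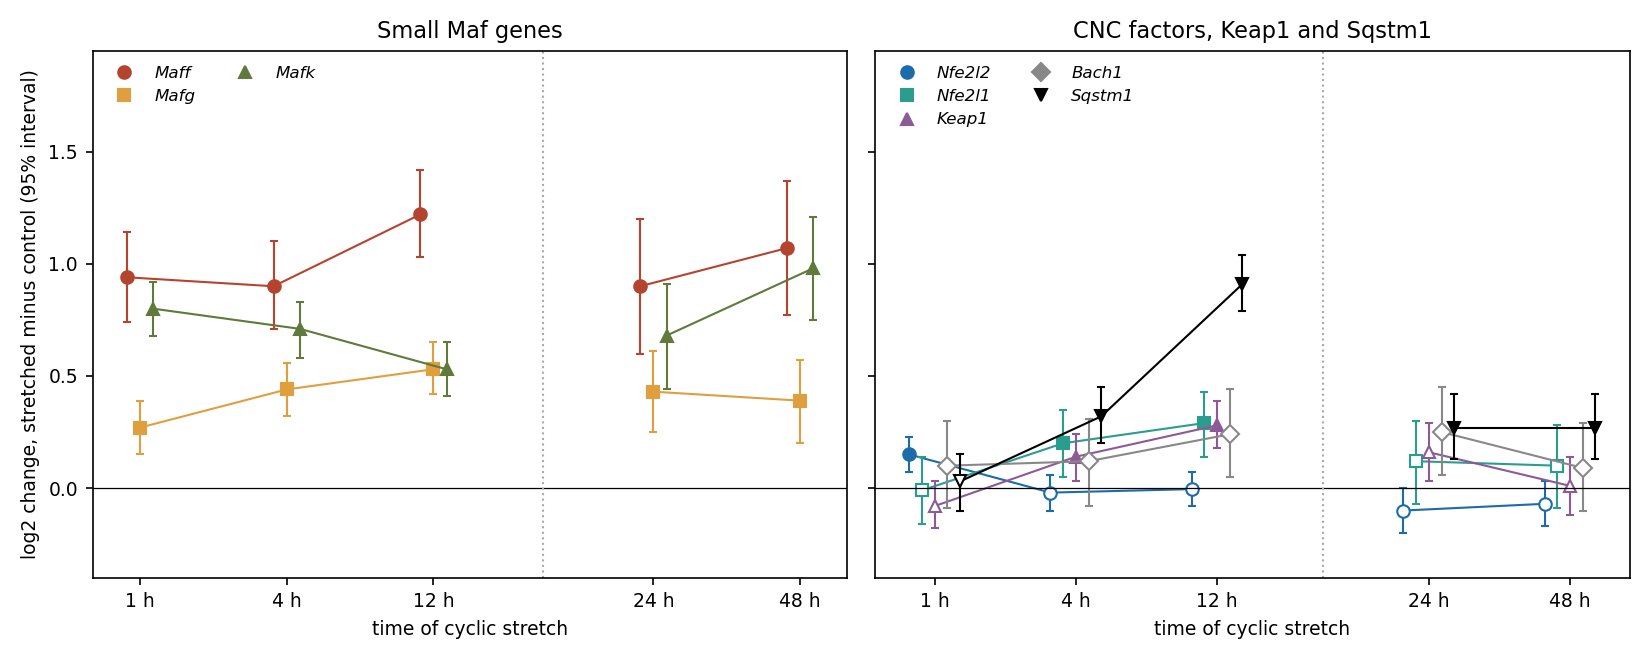
Log2 change of each gene against the unstretched control cells of its set, with 95% intervals from limma, for the small Maf genes on the left and the other 5 genes on the right. Filled symbols have an adjusted p under 0.05, lines join times of 1 set, and the dotted line separates the sets. Within set I, Maff is highest at 12 h at 1.22, and Sqstm1 reaches 0.91 at 12 h. Mafk falls from 0.8 to 0.53 over set I while Mafg rises from 0.27 to 0.53.

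**Figure D4:**
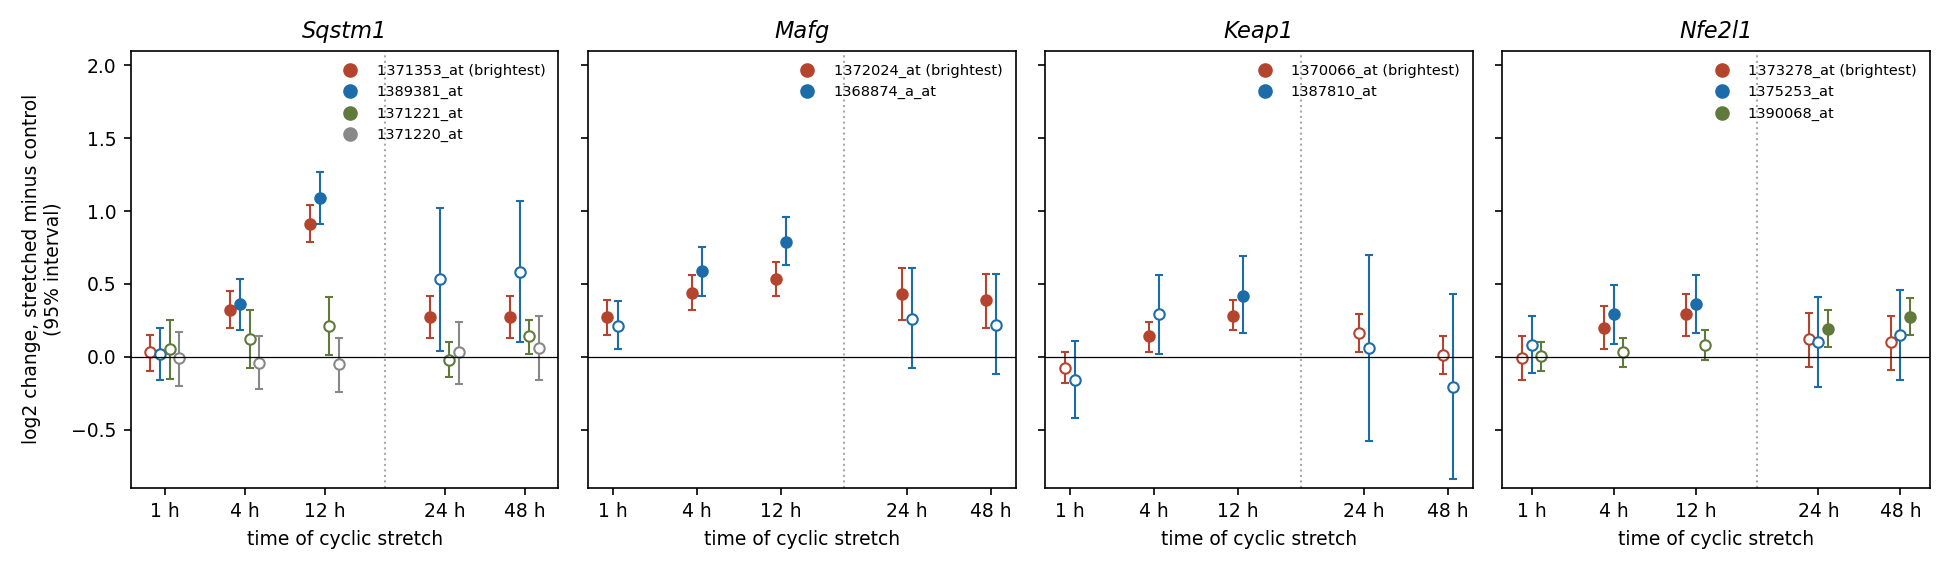
Log2 change against control, with 95% intervals, for every probe set of the 4 genes read by more than 1 probe set. Filled symbols have an adjusted p under 0.05. The brighter probe sets of Sqstm1 rise together at 12 h (0.91 and 1.09), while 1371220_at stays between -0.05 and 0.06.

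Within set I, 3 of the 8 genes differed between 1 and 4 h, where Keap1 and Sqstm1 were higher and Nfe2l2 lower at 4 h (13.3% of all probe sets were called). Maff and Sqstm1 were higher at 12 h than at 4 h, which makes 2 genes beside 9.38% of probe sets. Between 1 and 12 h, 7 genes differed beside 21.4% of probe sets, 5 higher at 12 h and 2, Nfe2l2 and Mafk, lower. Between 24 and 48 h limma called 0 of the 8 genes beside 6.11% of probe sets. In that comparison Mafk and Keap1 had an unadjusted p under 0.05, which makes 2. Each alternative setting called 0 as well, and among the fits without 1 array only that without 48 h replicate 4 called 1, Mafk.

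Genes downstream of Nrf2 moved over the same times. Of 30 listed Nrf2 target genes 26 were measured, and 10, 15, 23, 19 and 19 of them were higher at 1, 4, 12, 24 and 48 h, while 1, 3, 0, 0 and 4 were lower. Over all probe sets, 6.32%, 14.2%, 16.3%, 9.14% and 16.9% were higher, and 13.8%, 29.4%, 33.2%, 18.3% and 32.9% were called in either direction. At 12 and 24 h, where 0 were lower, limma's unadjusted p was under 0.05 for 24 and 23 of the 26 genes. These counts take both directions together and include the genes called higher, so they do not describe lower genes alone. The list's median log2 changes were 0.1, 0.25, 0.64, 0.28 and 0.36, beside medians over all genes of at most 0.044. At 12 h, Akr1b8 (an aldo-keto reductase) and Slc7a11 (the cystine transporter) rose 6.87-fold each (FDR = 6.83e-15 and 4.95e-13), Hmox1 (haem oxygenase) rose 5.66-fold (FDR = 2.25e-14) and Srxn1 (sulfiredoxin) rose 3.8-fold (FDR = 2.17e-13). Srxn1 was already up at 1 h by 1.62 on the log2 scale (FDR = 1.68e-12), as was Gclc, the catalytic subunit of glutamate-cysteine ligase, by 1.05 (FDR = 4.42e-10). Against the rest, Gsta4, a glutathione transferase, fell by 0.2 at 1 h and by 0.24 at 4 h on the log2 scale (FDR = 0.00163 and 0.000101), but it was higher by 0.25, 0.25 and 0.43 at 12, 24 and 48 h (FDR = 4.76e-05, 0.00442 and 1.71e-05). The transporter gene Abcc4 and the epoxide hydrolase gene Ephx1 were also lower at 4 h, with log2 changes of -0.47 and -0.26 (FDR = 0.000835 and 0.00117). At 48 h the lower genes were Abcc4 at -0.17, Akr7a2 at -0.29, Cbr1 at -0.4 and Gstm1 at -0.38 (FDR = 0.0465, 0.00192, 0.000288 and 0.0313). Of these, Cbr1 and Gstm1 had been higher at 12 h by 0.35 and 0.56 (FDR = 1.62e-05 and 2.12e-07), and Abcc4 at 24 h by 0.2 (FDR = 0.0347).

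**Figure D5:**
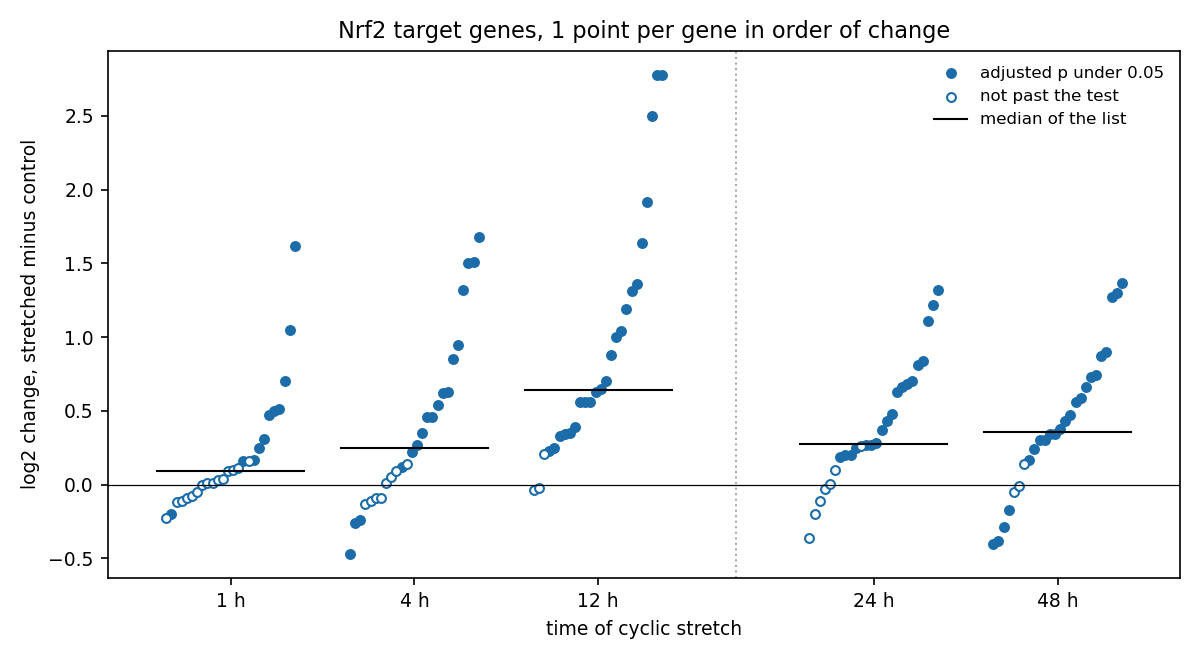
Log2 change against control of 26 measured Nrf2 target genes at each time, 1 point per gene in order of change, filled where the adjusted p is under 0.05. The bar is the median of the list, which is 0.1, 0.25, 0.64, 0.28 and 0.36 in the order of the times.

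Other measured members of the CNC and Maf families were lower or were not called. Of 7 listed genes 3 were measured, and 2 were lower at each of 1, 4, 12 and 48 h, namely Maf and Nfe2 at the times of set I and Maf and Mafa at 48 h. At these 4 times 13.8%, 29.4%, 33.2% and 32.9% of all probe sets were called in either direction. Nfe2, the haematopoietic relative of Nrf2, was lowest at 4 h at 0.558-fold of control (FDR = 3.03e-05), the large Maf gene Maf at 12 h at 0.72-fold (FDR = 3.33e-05), and Mafa at 48 h at 0.755-fold (FDR = 0.00199). At 24 h limma called 0 of the 3, and 0 had an unadjusted p under 0.05.

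Of the ubiquitin ligase subunits and kinases that destroy Nrf2, all 9 listed genes were measured, and 0, 2, 4, 1 and 4 were higher in the order of the times, while 9, 7, 5, 8 and 5 were not called. Over all probe sets, 6.32%, 14.2%, 16.3%, 9.14% and 16.9% were higher, so that the counts at 4 and 24 h lay near the background. At 1 h, where limma called 0, the unadjusted p was under 0.05 for 3. Gsk3b, a kinase that marks Nrf2 for degradation apart from Keap1, was 1.48-fold higher at 48 h (FDR = 0.000999), Cand1, which exchanges cullin adaptors, 1.28-fold at 48 h (FDR = 4.82e-05), Fbxw11 1.17-fold at 48 h (FDR = 0.00109) and Skp1 1.13-fold at 12 h (FDR = 0.0026). Cul3, the scaffold that Keap1 joins, was higher at 12 and 48 h by 0.12 and 0.14 on the log2 scale (FDR = 0.0224 and 0.0175).

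Of 7 genes whose proteins are known to bind Keap1, to compete with it for Nrf2 or to promote its turnover, 5 were measured. In the order of the times 2, 2, 2, 3 and 2 were higher, and 1 was lower at each. Over all probe sets, 6.32%, 14.2%, 16.3%, 9.14% and 16.9% were higher, and 13.8%, 29.4%, 33.2%, 18.3% and 32.9% were called in either direction. Palb2 was called at no time, with log2 changes from -0.06 to 0.14. Cdkn1a, which encodes p21, and the mitochondrial phosphatase gene Pgam5 were higher at all 5 times and reached 2.18-fold and 1.6-fold at 48 h (FDR = 3.52e-06 and 3.67e-07). The sestrin gene Sesn1 was lower at all 5 times and was 0.513-fold of control at 48 h (FDR = 2.28e-06). Sesn2, whose protein interacts with Keap1 and p62, was higher at 24 h by 1.22-fold (FDR = 0.0067) and its log2 changes at the other times ran from 0.06 to 0.17.

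Nrf1 is drawn from the endoplasmic reticulum, deglycosylated and cut before it can act, and all 8 genes listed for this route were measured. Higher were 0, 4, 5, 2 and 2 of them in the order of the times, and lower 0, 1, 1, 0 and 0. Over all probe sets, 6.32%, 14.2%, 16.3%, 9.14% and 16.9% were higher, and 13.8%, 29.4%, 33.2%, 18.3% and 32.9% were called in either direction. The counts at 1, 24 and 48 h are not read as different from that background. At 1 h, where limma called 0, the unadjusted p was under 0.05 for 1, and at 24 and 48 h for 3 each. The extraction factors Ufd1 and Nploc4 were 1.28-fold and 1.23-fold higher at 12 h (FDR = 2.34e-06 and 2.7e-05), and the protease gene Ddi2 was 1.26-fold higher at 4 h (FDR = 0.0235). Ngly1, the deglycosylating enzyme, went the other way at 0.853-fold at 4 h (FDR = 0.00397).

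Among 19 listed genes of selective autophagy, the route p62 serves, 16 were measured, of which 16, 10, 11, 14 and 8 were not called in the order of the times. Higher were 0, 2, 3, 1 and 6, and lower 0, 4, 2, 1 and 2, beside 13.8%, 29.4%, 33.2%, 18.3% and 32.9% of all probe sets called in either direction, and no share of the list called is read as different from that background. At 1 h, with 0 called by limma, the unadjusted p was under 0.05 for 3. Gabarapl1, an autophagosome protein that p62 docks on, was 1.39-fold higher at 12 h (FDR = 2.72e-07). Ulk1, the initiating kinase, was 0.689-fold at 48 h (FDR = 0.000528), Wipi1 0.759-fold at 4 h (FDR = 4.51e-05) and Tax1bp1, an adaptor like p62, 0.804-fold at 4 h (FDR = 1.05e-05). Optn, another adaptor of the list, was higher at 48 h by 0.26 on the log2 scale (FDR = 0.0151).

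The genes whose log2 levels followed the 1.5-fold changing members most closely were found by the lower of the Pearson correlations over the 20 arrays of set I and the 15 arrays of set II. The points share the 4 and 3 groups of the sets, so each r largely reflects differences between group means and carries no p. For Maff they were Srxn1 (r = 0.954 and 0.965), the arsenite-inducible gene Zfand2a (0.948 and 0.923) and B4galt5 (0.92 and 0.924). Mafk was followed by the heat shock gene Hspa1a (0.979 and 0.969), Skil, a repressor of TGF-beta signalling (0.974 and 0.966), and Pvr, a cell adhesion receptor (0.964 and 0.967). Pvr rose by 1.5 at 1 h and by 1.47 at 48 h on the log2 scale (FDR = 7.43e-14 and 4.72e-07). For Sqstm1 they were Adm, which encodes adrenomedullin (0.935 and 0.904), Eif5a (0.884 and 0.89) and Ppp2r2a (0.882 and 0.911). Like Sqstm1, Adm was higher at 12 h than earlier, with log2 changes of 0.3, 0.79 and 1.23 over set I (FDR = 0.0033, 1.48e-08 and 2.03e-11).

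Markers of the cells in the culture were checked beside these values. Of 10 cardiomyocyte markers 9 were measured, all above the upper quartile of the array in every group, as were all 8 cardiac fibroblast markers. Summed cardiomyocyte marker intensity ran from 127000 to 132000 in the controls of set I and from 121000 to 124000 at 12 h, and from 121000 to 123000 in the controls of set II and from 110000 to 116000 at 48 h, where 4 of 9 markers were lower and 1 higher. The fibroblast sum was 70500 to 75400 in the controls of set I and 65400 to 69100 at 12 h (6 of 8 lower), and 75000 to 78200 in the controls of set II and 63400 to 71200 at 48 h (5 of 8 lower). Endothelial markers, 6 of 7 measured, summed to 1760 to 2170 in the controls of set I and 1360 to 1630 at 12 h (4 lower), and to 2610 to 3450 in the controls of set II and 1800 to 1970 at 48 h (5 lower). The 8 macrophage markers summed to 4690 to 4930 in the controls of set II and to 2770 to 3470 at 48 h (7 lower), and to 1300 to 1610 in the controls of set I and 1140 to 1360 at 12 h (2 lower). The 6 smooth muscle and pericyte markers summed to 3050 to 3280 in the controls of set I, 3510 to 3870 at 1 h (2 higher), 3380 to 4370 at 4 h (3 higher, 1 lower) and 3060 to 3360 at 12 h (1 higher, 1 lower). In set II they summed to 2210 to 3180 in the controls, 2910 to 4720 at 24 h (3 higher) and 4080 to 4460 at 48 h (3 higher, 1 lower). Some markers were lower at other times too. At 1 h these were 2 cardiomyocyte and 2 fibroblast markers. At 4 h they were 3 cardiomyocyte, 6 fibroblast, 4 endothelial and 1 macrophage marker, and at 12 h 3 cardiomyocyte markers were lower. At 24 h 4 cardiomyocyte, 1 fibroblast, 2 endothelial and 2 macrophage markers were lower, and 1 cardiomyocyte and 1 fibroblast marker higher. Beside these marker counts, 13.8%, 29.4%, 33.2%, 18.3% and 32.9% of all probe sets were called in either direction at 1, 4, 12, 24 and 48 h. The part of the marker shifts in the changes of the 8 genes was not tested.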

How the data were processed

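Total RNA of NRVMs was hybridized to Affymetrix rat arrays. Scans were normalized by the authors in GeneSpring GX with RMA (Robust Multichip Average), and they deposited linear intensity values, 1 per probe set and array, which were taken to log2. RMA borrows strength across arrays and pulls their distributions together, so that changes are relative to the bulk of probe sets. The median intensity of an array was 88.7 to 93.1 (set I) and 90.4 to 95.8 (set II), and arrays of a group correlated at 0.9898 to 0.9983. The control labels carry only the letters a and b, which were read as sets I and II from the methods, and no value was compared across sets. In 427 probe sets, 471 values had been turned into day numbers by a spreadsheet and were read back, 0 of them in the 15 probe sets used.

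After removal of 57 array controls from 31099 probe sets, limma 3.58.1 (R 4.3.3) fitted group means to set I and set II apart, with Benjamini-Hochberg adjustment over all 31042 probe sets for each comparison, and the one-way analysis of variance named in the methods was an alternative. Called means an adjusted p (FDR) under 0.05. Differences between genes used exact permutation tests (scipy 1.17.1). With 5 arrays a group, replicates spread around the group mean by a median SD of 0.114 in set I and 0.12 in set II on the log2 scale. The fit was tested on simulated data. The 8 genes, the 6 pathway and 5 marker lists and the tests were chosen with earlier results of these data known. Named are the 8 genes with every probe set of theirs, up to 4 genes per pathway list with the largest called change and those that go against the rest, and 3 genes of closest pattern per member changed 1.5-fold. Cul3, Gclc and Optn and the early values of Srxn1, Pvr and Adm were added after their values were seen. The alternatives were 13 settings, 1 more added after the data were seen, and leaving out each of the 35 arrays in turn. Promoters and loci are RefSeq entries of build GRCr8, and all 8 genes matched.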

Additional observations from a re-analysis of the deposited data

Results flagged for a closer look

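Of 56 groups of 5 arrays (8 genes in 7 groups), 5 held an array set apart from the other 4, with a gap over 0.71 of the group's range. Chance alone gives about 1 in 20. For Mafk these were 4 h replicate 1 at a log2 intensity of 8.71 (the others 9.0 to 9.09) and control replicate 5 of set II at 8.53 (8.16 to 8.25). Keap1 had 48 h replicate 3 at 9.31 (9.12 to 9.16). For the dim Bach1 they were 1 h replicate 5 at 4.47 (4.78 to 4.90) and 24 h replicate 1 at 5.06 (4.63 to 4.74). They come from 5 different groups.

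Differences between times of stretch within set I passed the limma test in 12 cases. Against 1 h, the log2 level at 4 h was different by -0.17 for Nfe2l2, 0.21 for Keap1 and 0.3 for Sqstm1. From 1 to 12 h it differed by -0.16 for Nfe2l2, 0.29 for Nfe2l1, 0.36 for Keap1, 0.28 for Maff, 0.26 for Mafg, -0.27 for Mafk and 0.89 for Sqstm1. From 4 to 12 h Maff differed by 0.32 and Sqstm1 by 0.59. These comparisons share arrays and are not independent of each other.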

How the results depend on the processing

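The counts of genes called against control at each time, and at 1.5-fold, stayed within 1.5 times of their values under all settings. The number called between 4 and 12 h, 2 in the fit described, was 4 with log2(value + 16), without dim probe sets, with a mean-variance trend, with the mean of all own probe sets and with 1 probe set per gene, and 1 with the one-way analysis of variance or only the 2 groups compared, the Maff call at 0.32 being lost (adjusted p = 0.0571 to 0.171). Leaving out 1 array gave 1 to 3, and Maff was lost without 4 h replicate 1, 3, 4 or 5 or 12 h replicate 2, 3 or 4, at 0.27 to 0.32 (adjusted p = 0.0687 to 0.102). Between 1 and 12 h Maff was lost in 2 settings and without 1 h replicate 1, 2, 3 or 4 or 12 h replicate 2, 3 or 4, at 0.24 to 0.28 (adjusted p = 0.0569 to 0.101). Between 1 and 4 h 5 genes were called instead of 3 without dim probe sets and with 1 probe set per gene, and 3 to 4 with 1 array left out. Between 24 and 48 h 0 to 1 was called with 1 array left out. At 4 h Nfe2l1 and Keap1 were lost with the one-way analysis of variance (adjusted p = 0.156 and 0.0727) and with only the 2 groups compared (0.104 and 0.0884), and Nfe2l1 with an ordinary one-way layout of all groups (0.0541). The difference between 1 and 4 h was lost for Nfe2l2 with only the 2 groups compared (0.0521) and for Sqstm1 with all own probe sets averaged (0.0532).

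Across all groups of a set, the median gave no sign that replicate numbers pair the arrays. Same-numbered arrays of different groups had median residual correlations of 0.022 in set I and -0.043 in set II (other arrays 0.015 and 0.005). Single pairs of set II spread between -0.524 and 0.662 (other arrays -0.682 and 0.605). A median over all groups cannot exclude pairing between particular groups. In the controls of set II and at 24 h, replicate 4 was lowest for 1389381_at and 1371353_at of Sqstm1, 1387810_at of Keap1 and 1375253_at of Nfe2l1. In both groups it was brightest for the main probe sets of Keap1 (9.33 and 9.40) and Maff (7.17 and 8.02). Each 24 h array of main Keap1 was above the control of the same number. For Mafk, control replicate 5 and 24 h replicate 4 were brightest. For Nfe2l2, replicate 4 was the brightest control (11.56) but the lowest 24 h array (11.27). Pairing of these groups alone was not tested. With the replicate block, 4, 6, 6, 4 and 4 genes were called against control at the 5 times, and the 1 changed call was Nfe2l1 between 1 and 4 h (0.2, adjusted p = 0.025).

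Changes that turned sign were small and passed in neither case. Centring each array on its median gave 0.02 for Nfe2l1 at 1 h, 0.01 and 0.03 for Nfe2l2 at 4 and 12 h, and 0.02 for Sqstm1 between 24 and 48 h. Nfe2l1 at 1 h was 0.0028 with quantile normalization and 0.02 with array weights, which also gave -0.05 for Bach1 between 1 and 4 h. With all own probe sets averaged, Nfe2l1 was 0.03 at 1 h and 0.03 between 24 and 48 h, Keap1 -0.1 at 48 h, Sqstm1 0.06 between 24 and 48 h, and Nfe2l2 minus Keap1 0.03 at 48 h. Leaving out 1 array gave -0.04 to 0.01 for Nfe2l1 at 1 h, -0.03 to 0.01 for Nfe2l2 at 4 h, -0.02 to 0.0047 at 12 h and -0.01 to 0.03 between 4 and 12 h, and between 1 and 4 h -0.12 to 0.02 for Maff and -0.06 to 0.06 for Bach1. It gave -0.03 to 0.05 for Keap1 at 48 h, and between 24 and 48 h -0.01 to 0.04 for Nfe2l2, -0.08 to 0.07 for Nfe2l1, -0.07 to 0.0039 for Mafg and -0.04 to 0.04 for Sqstm1. Mafg minus Mafk at 12 h ran from -0.04 to 0.04 and Nfe2l2 minus Bach1 at 1 h from -0.03 to 0.09. The causes were not tested. Bach1 was too dim for the filtered fit of set II.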
